A study of Homo sapiens with 4 samples.

Results

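Cells detect double-stranded RNA with a small set of sensor proteins, and the 10 genes described here encode 5 of these sensors and 5 proteins that relay or restrain their signal. The sensors are RIGI, IFIH1 (MDA5), DHX58 (LGP2), EIF2AK2 (PKR) and TLR3. The relaying and restraining proteins are the mitochondrial adaptor MAVS, the ubiquitin ligase TRIM25, the kinase TBK1, the transcription factor IRF3 and the RNA editing enzyme ADAR. Members were taken by gene symbol, with no limit on their signals, from a list drawn up with earlier results of these data known, and 22 probe sets name 1 of the 10 genes each, of 54613 probe sets analysed, which represent 19775 genes in all.
RNA came from A549 cells, a line of human lung adenocarcinoma, and was hybridized to 4 Affymetrix arrays of the Human Genome U133 Plus series. All cells were transfected with siRNA, which is itself a short double-stranded RNA, and then serum starved for 36 h. The 4 conditions, with 1 array each, were control siRNA serum starved, control siRNA followed by nicotine at 1 µM for 24 h, ARRB1 siRNA serum starved, and ARRB1 siRNA followed by the same nicotine treatment. The control siRNA was a non-targeting sequence, and ARRB1 siRNA is directed at the RNA of β-arrestin-1. No array of untransfected cells is among the 4, so a lower level with ARRB1 siRNA and a higher level with control siRNA cannot be told apart. In bulk RNA, fewer cells that express a gene and less of its RNA per cell cannot be told apart either.
Background on the pathway is as follows. RIGI and IFIH1 are helicases in the cytoplasm that bind viral or other double-stranded RNA and pass the signal to MAVS. TLR3 binds such RNA in the endosome and signals by a route without MAVS. Both routes meet at TBK1, which phosphorylates IRF3 so that interferon genes are switched on. EIF2AK2 is a kinase that stops translation when it binds double-stranded RNA, and ADAR converts adenosine to inosine in such RNA, which makes cellular duplexes less visible to the sensors. Interferon in turn raises the RNA of most of the sensors, as it does many antiviral genes, whereas MAVS, TBK1 and IRF3 are regarded as largely constitutive.
ARRB1 itself was lower with its siRNA on 6 of 7 probe sets in each pair of arrays, which goes with the labels. The epithelial keratins KRT7, KRT8 and KRT18 had signals of 14406 to 32303, NKX2-1, a lung lineage factor, had at most 47.7, and the leukocyte genes PTPRC and CD3E had at most 84.0. Of 7 epithelial markers 6 were expressed, of which CDH1 (E-cadherin) had 5218 and 4812 with control siRNA and 3201 and 2827 with ARRB1 siRNA, and EPCAM had 538 and 465 against 531 and 384. Of the markers of other cell types, the endothelial PECAM1 (157 to 205) and the fibroblast genes COL1A1 (425 to 573) and DCN (at most 91.7) were expressed, and their part in the results was not tested. MAS5 signals are linear intensities, scaled by the authors to the same trimmed mean (500.1) on every array. Genes are called expressed when the brightest probe set reaches a mean signal of 66.3, the median over the probe sets, which holds for 12521 genes and for 9 of the 10 members.

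The promoters of the members are shown first, because interferon-responsive motifs are a known feature of the inducible genes of this pathway. RefSeq promoters on GRCh38.p14, from 250 bases before to 50 after the start site, were at hand for 8 of the 10 genes (not DHX58 or IRF3). They were searched on both strands for GAAA followed by any 2 bases and a further GAAA, the core of the interferon-stimulated response element, and for the shorter AANNGAAA, the core bound by interferon regulatory factors, which every match of the longer motif also contains. The longer motif was present in the promoters of IFIH1, EIF2AK2 and TLR3, and the shorter one also in those of RIGI and TRIM25. Neither was present in the promoters of MAVS, TBK1 or ADAR (3 entries for ADAR). Of 35116 RefSeq promoters of the same length, 3.57% held the longer motif and 22.8% the shorter. A further motif, TTCNNNGAA, the core of the gamma-activated site, was found among the members in TLR3 alone, and 7.66% of all promoters held it.
The stretches around the matches are printed 5′ to 3′ on the strand of the gene, with the matching bases in capitals. Positions are counted from the start site, with -1 as the last base before it and 1 as its first. They are at chr2:162318813-162318858 (IFIH1 distal, minus strand, match at -159 to -144, where matches overlap), chr2:162318681-162318720 (IFIH1 proximal, minus strand, -21 to -12), chr2:37156962-37157001 (EIF2AK2, minus strand, -6 to 4), chr4:186069137-186069176 (TLR3, plus strand, -4 to 6), chr9:32526376-32526413 (RIGI distal, minus strand, -202 to -195), chr9:32526310-32526354 (RIGI proximal, minus strand, -143 to -129, where matches overlap) and chr17:56914030-56914067 (TRIM25, minus strand, -3 to 5). The first 4 hold the longer motif and the last 3 the shorter.
IFIH1 distal: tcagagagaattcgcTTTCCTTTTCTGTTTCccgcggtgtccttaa
IFIH1 proximal: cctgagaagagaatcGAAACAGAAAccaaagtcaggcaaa
EIF2AK2: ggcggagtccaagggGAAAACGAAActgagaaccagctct
TLR3: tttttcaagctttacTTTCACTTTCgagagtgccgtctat
RIGI distal: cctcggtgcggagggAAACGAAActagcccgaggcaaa
RIGI proximal: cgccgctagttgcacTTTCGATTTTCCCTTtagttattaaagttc
TRIM25: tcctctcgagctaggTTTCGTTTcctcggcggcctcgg
The other members, with no stretch to show, lie on the same assembly with DHX58 at chr17:42101411-42112714, MAVS at chr20:3846834-3876118, TBK1 at chr12:64452120-64502114, IRF3 at chr19:49659572-49665857 and ADAR at chr1:154582057-154627997.
A match describes the letters only, and no binding was measured. In 4 of these 7 windows the match lies within 21 bases of the start site.

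The expressed sensor genes had lower signals in ARRB1 siRNA cells than in control siRNA cells in both pairs of arrays, whereas MAVS, TBK1 and IRF3 differed little or in different directions. The bright TRIM25 probe set (log2 differences of -0.59 and -0.40) and ADAR (-0.19 and -0.35) were also lower in both pairs. Among the sensors the brightest TLR3 probe set differed by only -0.16 in the serum starved pair. All 9 sensor probe sets above the expression limit were lower with ARRB1 siRNA in the serum starved pair and again in the nicotine treated pair, as were 32.6% of the 27307 probe sets above the limit. These 9 probe sets stand for 4 genes, and those of the same gene are not independent readings. The 2 pairs share no array, but the labels do not say whether the arrays of 1 siRNA came from separate transfections. On the same 9 sensor probe sets both ARRB1 siRNA arrays lay below both control siRNA arrays, as on 23.4% of the probe sets above the limit. Of the 9 probe sets of the other members, 4 were lower in both pairs, on each of which the siRNA groups likewise did not overlap, and none was higher in both.
RIGI, the helicase that recognizes short duplexes with a 5′ triphosphate, was measured by 3 probe sets. The brightest, 242961_x_at, read 2148 (serum starved) and 2161 (nicotine) with control siRNA, against 1163 and 1199 with ARRB1 siRNA. The 218943_s_at probe set had 923 and 987 with control siRNA and 421 and 437 with ARRB1 siRNA. On 222793_at the signals were 1415 and 1527 with control siRNA and 818 and 753 with ARRB1 siRNA. Both control arrays lay above both ARRB1 siRNA arrays on each RIGI probe set, and the arrays of the same siRNA lay close together.
In log2 terms the siRNA differences of RIGI were -0.88 and -0.85 on the brightest probe set, -1.13 and -1.17 on 218943_s_at, and -0.79 and -1.02 on 222793_at, for the serum starved and nicotine treated pair in that order. With 1 array per condition there is no replicate error, and the spread used here is the SD of log2 differences over the 500 probe sets nearest in mean signal, between the same 2 arrays. For the brightest RIGI probe set this SD was 0.26 and 0.28. RIGI in ARRB1 siRNA cells thus stood at 54.2% and 55.5% of its control siRNA signal by the brightest probe set, a difference of more than 3 such SDs.
IFIH1, the helicase that recognizes long duplexes, had the lowest siRNA differences of the expressed members. Its bright probe set, 219209_at, read 1038 (serum starved) and 1095 (nicotine) with control siRNA, against 389 and 299.8 with ARRB1 siRNA. The log2 differences were -1.42 and -1.87 (SD at this signal 0.32 and 0.33), or 37.5% and 27.4% of the control signal. Among 12521 expressed genes ordered from the lowest, IFIH1 was the 36th in the serum starved pair and the 25th in the nicotine treated pair.
The other IFIH1 probe sets were dim. On 1555464_at the signals were 29.3 and 47.7 with control siRNA and 7.42 and 19.9 with ARRB1 siRNA. On 216020_at they were 23.6 and 37.6 with control siRNA and 6.56 and 9.91 with ARRB1 siRNA. Both control arrays were again above both ARRB1 siRNA arrays, although probe sets this dim had SDs of 1.42 to 1.58 in these comparisons.
EIF2AK2, the kinase that phosphorylates the translation factor eIF2α, was lower with ARRB1 siRNA on all 3 of its probe sets. On 213294_at it had 5247 and 5547 with control siRNA and 3166 and 2571 with ARRB1 siRNA, in the order serum starved and nicotine treated. On 204211_x_at it had 1756 and 1819 against 979 and 1172. On the dimmer 242898_at it had 264 and 316 against 154 and 165.
The groups did not overlap on any EIF2AK2 probe set. The log2 differences ranged from -0.84 to -0.73 in the serum starved pair and from -1.11 to -0.63 in the nicotine treated pair, and the SD at these signals ranged from 0.24 to 0.41.
TLR3, the endosomal receptor for double-stranded RNA, was dimmer, and its probe sets did not give 1 answer. On 206271_at the signals were 151 (serum starved) and 180.0 (nicotine) with control siRNA, and 135 and 60.2 with ARRB1 siRNA. The siRNA difference was therefore -0.16 in the serum starved pair, within the SD of 0.48 at this signal, and -1.58 in the nicotine treated pair, against an SD of 0.50. On 239587_at, which had 164 and 175 with control siRNA and 93.3 and 73.6 with ARRB1 siRNA, the differences were -0.81 and -1.25.
The third TLR3 probe set, 242667_at, had signals from 2.38 to 17.7 with no order by siRNA. DHX58, a helicase without signalling domains that modulates RIGI and IFIH1, was the member that was not expressed, and its only probe set had 6.06 and 9.54 with control siRNA and 5.54 and 5.84 with ARRB1 siRNA. The SD of log2 differences at that signal was 1.59 and 1.73, so a difference for DHX58 was not detectable on these arrays.

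**Figure D1:**
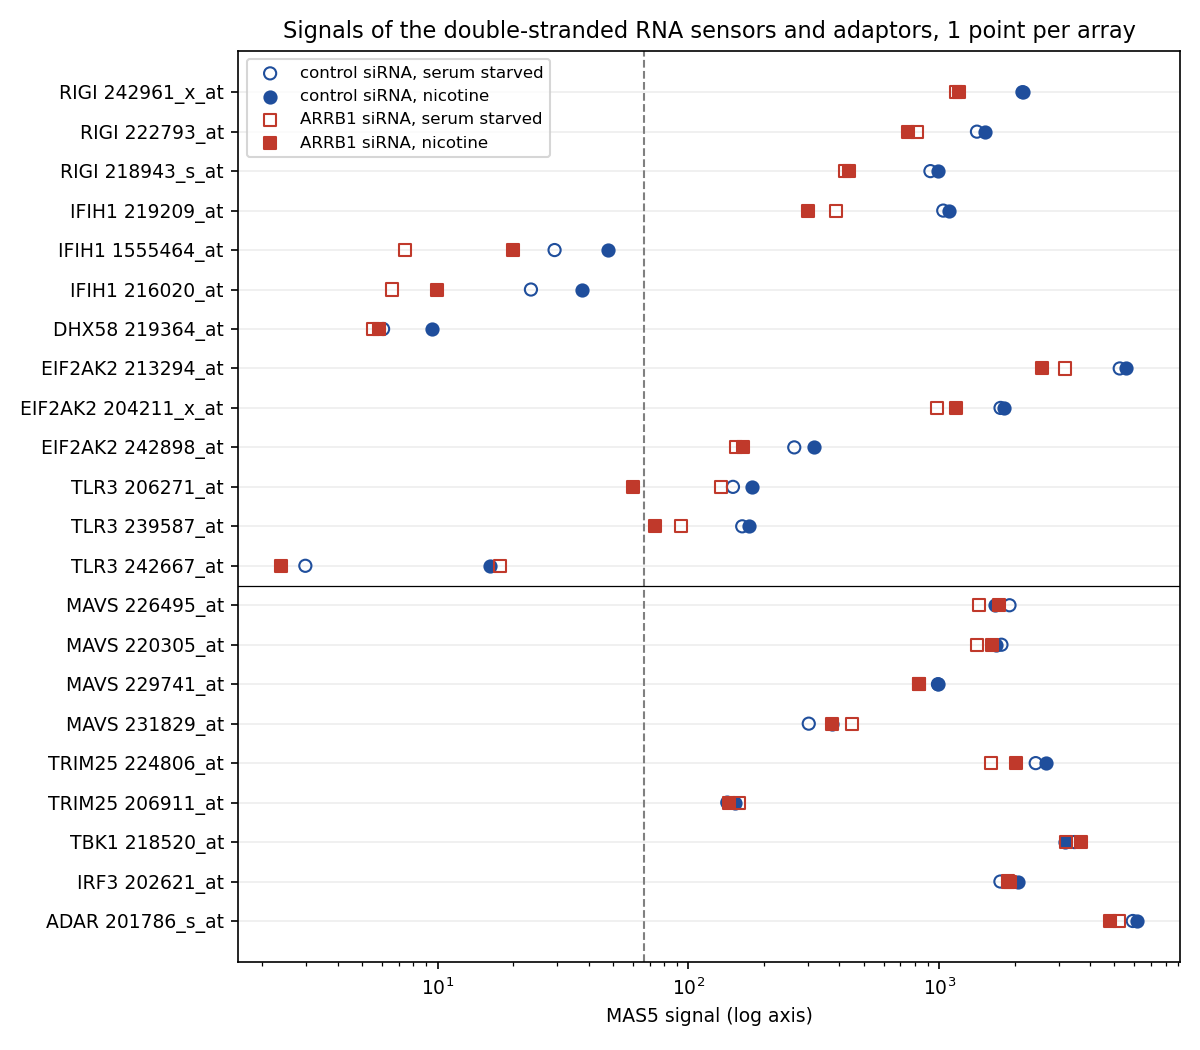
MAS5 signal (log axis) of the 22 probe sets of the double-stranded RNA sensors (above the black line) and of the adaptors, kinase, transcription factor and editing enzyme (below it), with 1 point per array. Blue circles are control siRNA and red squares ARRB1 siRNA, open for serum starved and filled for nicotine, and the dashed line is the expression limit of 66.3. For RIGI, EIF2AK2 and the bright IFIH1 probe set both red squares lie to the left of both blue circles, whereas the 4 points of TBK1 and IRF3 interleave. Among the probe sets below the line, MAVS 220305_at and 229741_at, TRIM25 224806_at and ADAR also have both squares to the left.

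MAVS, the adaptor on which RIGI and IFIH1 converge, had 4 probe sets above the limit and no common direction. Its brightest, 226495_at, read 1907 (serum starved) and 1671 (nicotine) with control siRNA, and 1439 and 1731 with ARRB1 siRNA. On 220305_at the signals were 1771 and 1684 with control siRNA and 1410.0 and 1618 with ARRB1 siRNA. On 229741_at they were 989 and 986 against 829 and 830.2, and on 231829_at 302 and 375 against 449 and 373.
The siRNA groups did not overlap on 220305_at and 229741_at and overlapped on the other MAVS probe sets. The log2 siRNA differences of MAVS ranged from -0.41 to 0.57 in the serum starved pair and from -0.25 to 0.05 in the nicotine treated pair. In the serum starved pair 226495_at (-0.41, SD 0.25), 220305_at (-0.33, SD 0.26) and 231829_at (0.57, SD 0.37) lay beyond the SD. There 229741_at (-0.25, SD 0.31) did not, and the median over the MAVS probe sets was -0.29. In the nicotine treated pair every MAVS probe set differed by less than the SD at its signal, 0.27 to 0.40. The brightest probe set gave 0.05 in that pair, and the median over the 4 MAVS probe sets gave -0.03.
TRIM25, the ubiquitin ligase that activates RIGI and is itself raised by interferon, was lower with ARRB1 siRNA on 1 of its 2 probe sets. Its bright probe set, 224806_at, had 2426 and 2671 with control siRNA and 1611 and 2031 with ARRB1 siRNA, log2 differences of -0.59 and -0.40 against SDs of 0.24 and 0.30. The dim one, 206911_at, had 143 and 154 with control siRNA and 159 and 145 with ARRB1 siRNA. The siRNA groups did not overlap on the bright TRIM25 probe set and overlapped on the dim one.
TBK1, the kinase downstream of MAVS and of TLR3, had 3459.9 and 3188 with control siRNA and 3199.7 and 3676 with ARRB1 siRNA. IRF3, its substrate, had 1755 and 2059.9 with control siRNA and 1879 and 1908 with ARRB1 siRNA. For each, the siRNA groups overlapped, the log2 differences (-0.11 and 0.21 for TBK1, 0.10 and -0.11 for IRF3) had opposite signs in the pairs, and both were smaller than the SD at that signal.
ADAR, which has a constitutive and an interferon-inducible isoform, was read by 1 probe set, which had 5917 and 6147 with control siRNA and 5203 and 4807 with ARRB1 siRNA. Both ARRB1 siRNA arrays were below both control arrays, by 0.19 and 0.35 on the log2 scale. The first of these is within the SD of 0.21 at this signal, and the second is beyond the SD of 0.25.

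**Figure D2:**
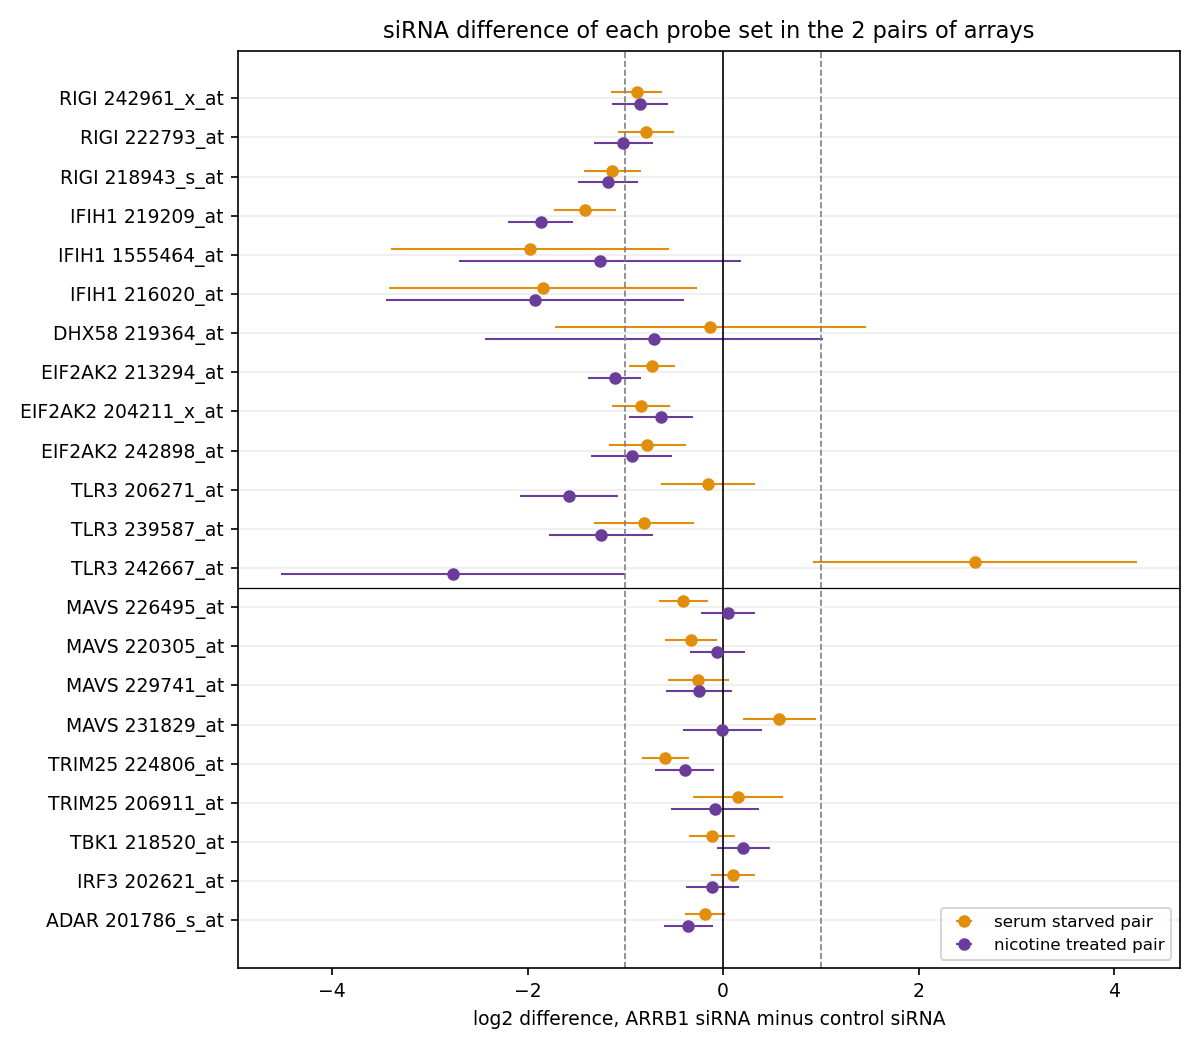
Log2 difference between ARRB1 siRNA and control siRNA (horizontal axis) of each of the 22 probe sets, in the serum starved pair (orange) and the nicotine treated pair (purple). Bars are the SD of log2 differences over the 500 probe sets nearest in mean signal in the same pair, not a replicate error, and dashed lines mark 2-fold. The expressed probe sets of the sensors lie between -1.42 and -0.16 in the serum starved and between -1.87 and -0.63 in the nicotine treated pair, and those of the other members between -0.59 and 0.57 and between -0.40 and 0.21.

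Taking the brightest probe set of each gene, IFIH1 was the 1 expressed member at least 2-fold lower with ARRB1 siRNA in serum starved cells, where 0.783% of the expressed genes were at least 2-fold lower. In nicotine treated cells IFIH1, EIF2AK2 and TLR3 were at least 2-fold lower, against 1.4% of the expressed genes. IFIH1 alone met the limit in both pairs, as did 0.327% of the expressed genes. No member was at least 2-fold higher, where 1.01% of the expressed genes were so in serum starved and 0.879% in nicotine treated cells, and 0.168% in both.
RIGI lay outside the limit at -0.88 and -0.85, and the count depends on which probe set stands for it. Without the _x_at probe sets, whose probes can match other transcripts, RIGI at -1.02 would make 4 members at least 2-fold lower in nicotine treated cells. With the median over probe sets, RIGI, IFIH1 and TLR3 met the limit there and EIF2AK2, at -0.93, did not.
With a limit of 1.5-fold, RIGI, IFIH1, EIF2AK2 and TRIM25 were lower in serum starved cells (3.87% of expressed genes), and RIGI, IFIH1, EIF2AK2 and TLR3 in nicotine treated cells (6.43%). RIGI, IFIH1 and EIF2AK2 were lower by at least 1.5-fold in both, compared with 1.72% of the expressed genes, and no member was higher by that much in both, as 1.01% of the expressed genes were. Lower by any amount in both pairs were 6 of the 9 expressed members, the exceptions being MAVS, TBK1 and IRF3, against 30.0% of the expressed genes.
The median log2 difference of the 4 expressed sensors was -0.81 in serum starved and -1.34 in nicotine treated cells, beside medians of -0.19 and -0.11 for the 5 other members and 0.02 in both pairs for all expressed genes. In nicotine treated cells the expressed probe sets of the sensors (-1.87 to -0.63) and of the other members (-0.40 to 0.21) did not overlap. In serum starved cells they did, through TLR3 206271_at at -0.16, above probe sets of TRIM25 (-0.59), MAVS (-0.41, -0.33 and -0.25) and ADAR (-0.19).
As a second description, an additive limma fit over all 4 arrays was made for the 12521 expressed genes, with siRNA and nicotine as terms. The fit has 1 residual degree of freedom, takes the arrays of 1 siRNA in the 2 treatments as repeats, and counts any interaction as error. By this fit RIGI (-0.87 ± 0.11 SE, adjusted p = 0.000143), IFIH1 (-1.64 ± 0.15, adjusted p = 8.94e-06), EIF2AK2 (-0.92 ± 0.11, adjusted p = 0.000131) and TRIM25 (-0.49 ± 0.11, adjusted p = 0.0104) were called lower with ARRB1 siRNA, against 3.82% of the expressed genes. No member was called higher, against 3.63%.
The limma adjusted p was 0.0863 for ADAR, 0.17 for TLR3, 0.456 for MAVS, 0.852 for TBK1 and 0.985 for IRF3. These calls rest on the trend and robust settings of the variance moderation. Without those settings limma called no gene at all (1933 had an unadjusted p under 0.05). The limma adjusted p of RIGI, IFIH1, EIF2AK2 and TRIM25 was then 0.193, 0.181, 0.195 and 0.236. With the median over its probe sets in place of the brightest, limma again called no gene (1939 at an unadjusted p under 0.05), and the adjusted p of these genes was 0.0815, 0.0756, 0.0756 and 0.337. TRIM25 was also lost with centred arrays (limma adjusted p = 0.0842). The p-values measure only the spread between these 4 arrays. Most of their degrees of freedom, 14.3 to 16.2 in total for the members called, are borrowed from other genes.

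**Figure D3:**
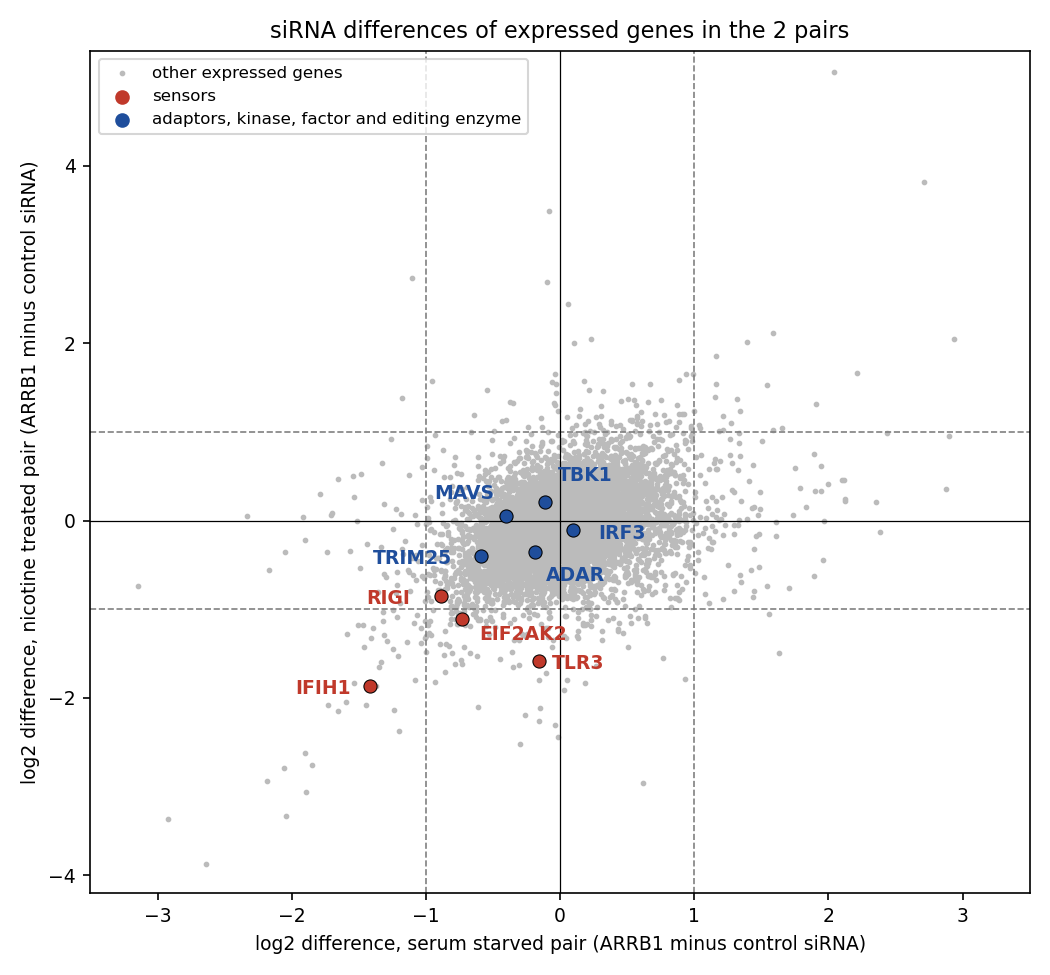
Log2 differences between ARRB1 and control siRNA of the 12521 expressed genes in the serum starved pair (horizontal axis) and the nicotine treated pair (vertical axis), each gene by its brightest probe set. Red points are the 4 expressed sensors, blue points the 5 other members, grey points all other expressed genes, and dashed lines mark 2-fold. IFIH1 lies beyond 2-fold on both axes, at -1.42 and -1.87, while MAVS, TBK1 and IRF3 lie within the bulk of the genes.

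The nicotine differences of the members in control siRNA cells were small. The 18 expressed probe sets of the members differed by -0.19 to 0.31 on the log2 scale with nicotine, and no member reached 2-fold in either direction, where 0.335% of the expressed genes were at least 2-fold lower and 0.719% higher.
Every expressed sensor probe set was slightly higher with nicotine in control siRNA cells, from 0.01 for RIGI 242961_x_at to 0.26 for TLR3 206271_at and EIF2AK2 242898_at, each within the SD at its signal. These signs depend on the scaling, since with arrays centred on their medians the brightest probe sets of RIGI, IFIH1 and EIF2AK2 gave -0.09, -0.02 and -0.01 and that of TLR3 gave 0.16.
In ARRB1 siRNA cells TLR3 was the 1 member at least 2-fold lower with nicotine (-1.17 on 206271_at, SD 0.46), against 0.958% of the expressed genes (0.495% were 2-fold higher, none a member), and its probe set 239587_at gave -0.34. IFIH1 (-0.38) and EIF2AK2 (-0.30 on 213294_at) were lower by more than the SD at their signals, 0.28 and 0.20, whereas RIGI differed by 0.04. The other EIF2AK2 probe sets were higher, at 0.26 on 204211_x_at and 0.10 on 242898_at, and with the median over its probe sets each gene was higher, IFIH1 at 0.60 (from dim probe sets) and EIF2AK2 at 0.10. TRIM25 (0.33 on 224806_at) and MAVS (0.27 on 226495_at) were higher with nicotine in ARRB1 siRNA cells, against an SD of 0.24 for each. The dim TRIM25 probe set 206911_at gave -0.13. The other MAVS probe sets gave 0.20 (220305_at), 0.002 (229741_at) and -0.27 (231829_at). With the median over probe sets the difference was 0.10 for TRIM25 and 0.10 for MAVS.
On the brightest probe sets the siRNA difference was larger in the nicotine treated than in the serum starved pair for IFIH1 (by 0.45), EIF2AK2 (by 0.38) and TLR3 (by 1.43), and about equal for RIGI (0.03 in the other direction). The dim IFIH1 probe set 1555464_at had the opposite order (-1.98 and -1.26), and the median over the IFIH1 probe sets gave nearly equal values of -1.85 and -1.87. For TLR3 the differences on 239587_at, -0.81 and -1.25, lay closer together. Whether the siRNA difference itself depends on nicotine was not tested, since the 4 arrays leave no degree of freedom for it. For EIF2AK2 the order held on 242898_at (-0.78 and -0.93) and was turned on 204211_x_at (-0.84 and -0.63). In the additive limma fit, nicotine gave no adjusted p under the threshold for any expressed member, as for all but 0.0879% of the expressed genes.

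The wider pathway was described with lists of genes, each gene by its brightest probe set. The counts stand beside the 3.82% of all expressed genes that the additive limma fit called lower and the 3.63% that it called higher, and a few calls in a list are close to these shares. At least 2-fold lower in both pairs were 0.327% of all expressed genes. Of 16 expressed signalling partners of MAVS and TLR3, 2 were called lower and 1 higher with ARRB1 siRNA by the limma fit. The list medians were -0.02 in the serum starved and 0.06 in the nicotine treated pair. IRF7, the interferon-induced relative of IRF3, had 1569 and 1664 with control siRNA and 615 and 528 with ARRB1 siRNA, log2 differences of -1.35 and -1.66 (limma adjusted p = 4.85e-06).
TRADD, a death domain adaptor also bound by MAVS, had 1097 and 986 against 678 and 760.3, log2 differences of -0.69 and -0.37 (limma adjusted p = 0.0188). RELA, the transactivating subunit of NF-κB, was the gene called higher, with 1196 and 1340.0 against 1946 in both ARRB1 siRNA arrays, differences of 0.70 and 0.54 (limma adjusted p = 0.00293). STING1, the adaptor of the DNA sensing route, had 117 and 115 against 87.0 and 81.4 (limma adjusted p = 0.454).
By the same measure IRF7 was at least 2-fold lower in both pairs, and the 2 differences of IRF3 had opposite signs.
Among 13 expressed regulators of the RIG-I-like receptors none was called lower. PCBP2, an RNA-binding protein that promotes the turnover of MAVS, was the 1 called higher, at 14146 and 15404 against 16742 and 19075 (0.24 and 0.31, limma adjusted p = 0.0356). TRIM65, a ubiquitin ligase for IFIH1, had 543 and 670 against 773 and 827 (limma adjusted p = 0.0772). RIOK3 (0.11 and 0.38) and NLRX1 (-0.19 and -0.22) were not called.
Among 19 other expressed double-stranded RNA binding proteins and RNA interference genes, 7 were called lower and 1 higher, with list medians of -0.24 and -0.03. Those with the largest differences are interferon-inducible genes, and 3 of them were at least 2-fold lower in both pairs. OAS2, a synthase of the 2′-5′ oligoadenylates that activate RNase L, had 936 and 1217 with control siRNA and 123 and 118 with ARRB1 siRNA (-2.92 and -3.37, limma adjusted p = 4.71e-08).
OASL, a relative that enhances RIGI signalling, had 1029 and 1078 against 397 and 295 (-1.37 and -1.87, limma adjusted p = 1.46e-05). DDX60, a helicase linked to RIGI, had 1589 and 1720.4 against 582 and 406 (-1.45 and -2.08, limma adjusted p = 4.63e-05). OAS3 had 4819 and 5547 against 2833 and 2476 (-0.77 and -1.16, limma adjusted p = 0.000105).
The genes of RNA interference itself did not share 1 direction. AGO2, the slicer of siRNA-guided cleavage, had log2 differences of 0.57 and 0.46 (limma adjusted p = 0.0188), and DICER1, which cuts long duplexes into siRNA, had -0.31 and -0.81 (limma adjusted p = 0.0185). These genes were named after their values were seen.
Of 8 genes of the eIF2α kinases and the stress response, 1 was called higher and none lower. ATF4, the transcription factor translated when eIF2α is phosphorylated, was that gene, at 8631 and 9015 against 10041 and 11529 (limma adjusted p = 0.0454). EIF2AK4, an eIF2α kinase that senses amino acid shortage, had -0.28 and -0.19 (limma adjusted p = 0.298), PPP1R15A had 0.34 and 0.31 (limma adjusted p = 0.135), and DDIT3 had -0.60 and 0.25 (limma adjusted p = 0.688). EIF2AK1 and EIF2AK3, the remaining kinases of the family, differed by 0.12 or less in size in either pair, so EIF2AK2 was the 1 eIF2α kinase called lower.
Other Toll-like receptors were dim. Of 10 genes of that list, TLR6 and UNC93B1, which escorts endosomal receptors, were expressed, and neither was called.
Of 12 expressed genes that lie downstream of the sensors, 5 were called lower and 2 higher, and 6 were at least 2-fold lower in both pairs, with list medians of -0.70 and -1.28. IFIT1, an antiviral RNA-binding protein, had 6694 and 8735 with control siRNA and 1627 and 865 with ARRB1 siRNA (-2.04 and -3.34), with a limma adjusted p of 0.218. MX1, an antiviral GTPase, had 2937 and 3633 against 646 and 472 (-2.18 and -2.94, limma adjusted p = 0.000271). IFIT3 (-1.66 and -2.15) and IFIT2 (-1.73 and -2.08) were also called lower.
The interferon genes themselves were not expressed on these arrays, with signals of IFNB1, IFNA1, IFNL1 and IFNL2 between 5.38 and 79.8, so their part in these differences was not tested. The downstream genes called higher were CCL5 and IL6, at 0.52 and 0.96 and at 0.29 and 0.55.

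**Figure D4:**
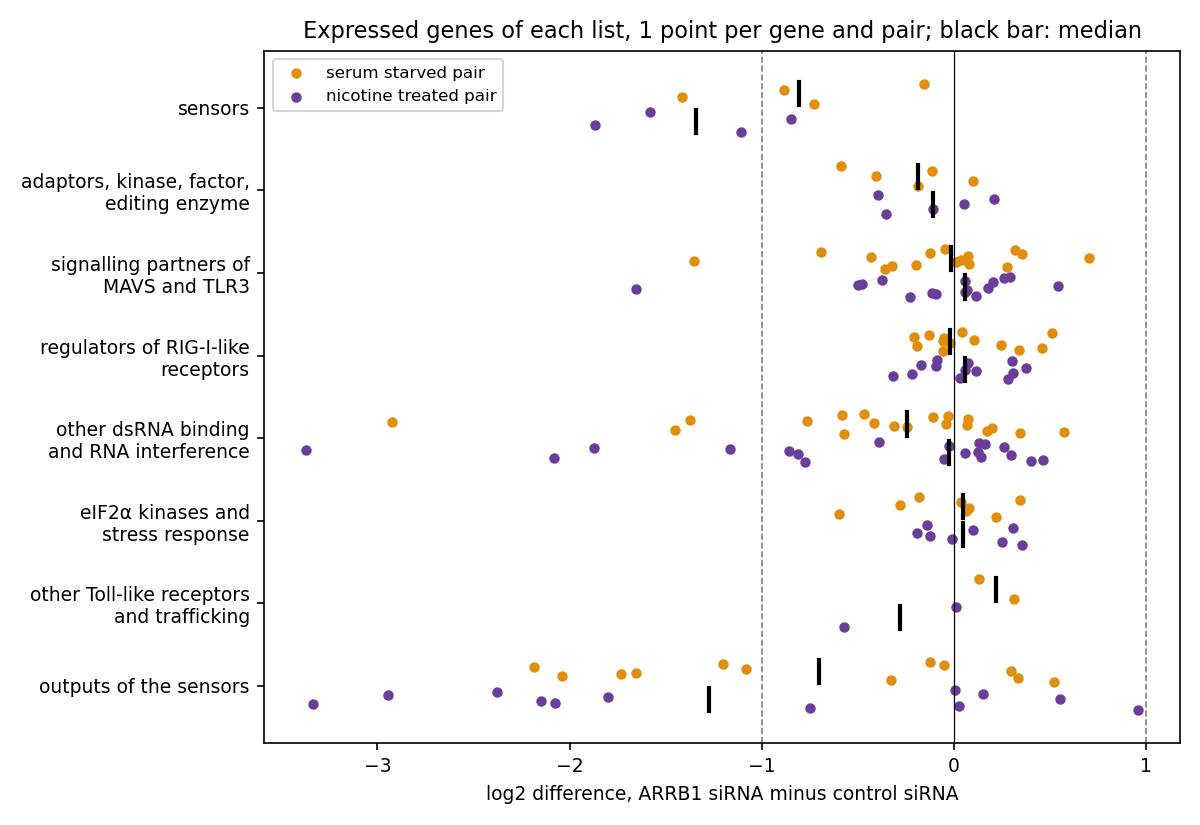
Log2 differences between ARRB1 siRNA and control siRNA (horizontal axis) of the expressed genes of each list, with 1 point per gene in the serum starved pair (orange) and the nicotine treated pair (purple), black bars at the list medians and dashed lines at 2-fold. The medians of the sensors are -0.81 and -1.34 and those of the downstream genes -0.70 and -1.28, while the medians of the other lists lie between -0.28 and 0.22.

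The genes whose pattern over the 4 arrays was most like that of 2 of the sensors were found by Euclidean distance between log2 signals, each taken relative to the mean of the gene over the 4 arrays. For IFIH1 the nearest of the expressed genes were OASL (distance 0.04), DDX60 (0.16), IRF7 (0.18), PARP9 (0.19) and MX2 (0.21). OASL had signals of 1029, 1078, 397 and 295, set against 1038, 1095, 389 and 299.8 for IFIH1, with control siRNA first and serum starved before nicotine.
For RIGI the nearest were SP110 (0.04), LRMDA (0.05), RNF213 (0.07), EFNA2 (0.09) and UBE2L6 (0.09). SP110, a nuclear body protein, had 864 and 850.4 with control siRNA and 457 and 466 with ARRB1 siRNA. Among the expressed members, EIF2AK2 was nearest to RIGI at 0.25. After it came TRIM25 (0.44), ADAR (0.61), MAVS (0.72), IFIH1 (0.83), TLR3 (0.87), IRF3 (0.88) and TBK1 (0.93). The sensors IFIH1 and TLR3 thus lay farther from RIGI than ADAR and MAVS did. For IFIH1 the order of the members was EIF2AK2 (0.73), RIGI (0.83), TLR3 (0.96), TRIM25 (1.26), ADAR (1.38), MAVS (1.55), IRF3 (1.66) and TBK1 (1.74). With 4 arrays this likeness is mainly that of the siRNA difference in each pair.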

How the data were processed

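RNA from A549 cells was measured on 4 arrays, 1 per condition, and groups were taken from the sample titles. The authors deposited MAS5 signals, which are intensities on a linear scale, and the submitters' processing notes name GCOS 1.4. The log2 transformation and gene centring named in the study's methods are not in them. Of 54675 probe sets, 62 controls were left out. Of the rest, 41091 had 1 gene symbol, 1801 several and 11721 none in the platform annotation given with the data, and no probe set named a member along with another gene. Log2 differences were taken in pandas 2.3.3 (numpy 2.4.6, Python 3.11.15) without a floor or further scaling. A gene was represented by its brightest probe set by mean log2 signal. The 2-fold limit is that of the submitters. The additive fit used limma 3.58.1 in R 4.3.3 (trend and robust settings, Benjamini-Hochberg adjustment over all expressed genes, threshold 0.05). On data simulated for this siRNA fit on 12521 genes, it called 44 of 50 genes changed by a log2 value of 1, 37 of 50 changed by -1, 50 of 50 changed by 2, 45 of 50 changed by -2, and 15 of 12321 unchanged genes. The simulated noise was independent between arrays, sized from the nicotine differences in control siRNA cells, and without interaction. Near EIF2AK2 213294_at that SD was 0.14, against 0.24 and 0.27 for the siRNA pairs. The rates may therefore be too favourable for the real arrays. The arrays have no replicates, and their number limits the precision. The members and gene lists were chosen with earlier results of these data known. Genes named outside the members were, by rule, the 4 expressed genes of each list with the largest mean siRNA difference and the 5 nearest profiles of RIGI and IFIH1, and a few others were named after their values were seen.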

Additional observations from a re-analysis of the deposited data

Results flagged for a closer look

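Differences of opposite sign in the 2 pairs, both beyond the SD at that signal, were found for 2 probe sets of the members. The dim TLR3 probe set 242667_at had log2 siRNA differences of 2.58 (serum starved pair) and -2.76 (nicotine pair), and nicotine differences of 2.44 in control siRNA and -2.90 in ARRB1 siRNA cells. Its signals, from 2.38 to 17.7, all lay below the expression limit of 66.3, and the other TLR3 probe sets were lower with ARRB1 siRNA in both pairs. MAVS 226495_at differed with nicotine by -0.19 in control siRNA cells and by 0.27 in ARRB1 siRNA cells, against SDs of 0.17 and 0.24. Of the other MAVS probe sets, 231829_at gave the opposite signs, at 0.31 (SD 0.28) and -0.27 (SD 0.33). On 220305_at the nicotine differences were -0.07 and 0.20, and on 229741_at they were -0.004 and 0.002. Neither of the 2 flagged differences between the pairs was tested, since there is 1 array per condition.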

How the results depend on the processing

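The counts of members at least 2-fold lower or higher were recomputed with centred arrays, quantile normalization, a floor at the 25th percentile, other probe set rules and other filters. The count of members lower with nicotine in ARRB1 siRNA cells (1, TLR3) became 0 with the filter at the 75th percentile, which leaves TLR3 out. With a 1.5-fold limit the counts of lower members were 4 for siRNA in serum starved cells and 3 for both pairs, the latter count being added after the data were examined. With a 3-fold limit they were 0 in serum starved cells, 1 in nicotine treated cells (IFIH1), 0 in both pairs, and 0 for nicotine in ARRB1 siRNA cells. The additive limma fit called 3 or 4 members lower in 6 of 8 alternatives, TRIM25 being lost with centred arrays (adjusted p = 0.0842) and without a filter (adjusted p = 0.0574). It called 0 members and 0 genes when the median over all its probe sets stood for a gene, where 1939 genes had an unadjusted p under 0.05, and 0 without trend and robust settings, where 1933 did. With the median, limma gave RIGI -0.95 (adjusted p = 0.0815), IFIH1 -1.83 (0.0756), EIF2AK2 -0.85 (0.0756) and TRIM25 -0.23 (0.337). Over all expressed genes the fit called 478 lower and 455 higher, 298 and 183 with centred arrays, and 192 and 109 without a filter. The genes at least 2-fold lower and higher with siRNA numbered 98 and 127 in serum starved cells (131 and 111 centred) and 175 and 110 in nicotine treated cells (142 and 148 centred, 149 and 144 after quantile normalization). With nicotine they numbered 42 and 90 in control siRNA cells (60 and 70 centred, 57 and 74 after quantile normalization) and 120 and 62 in ARRB1 siRNA cells (92 and 84 centred). The filter at the 75th percentile also drops TLR3 from the siRNA count in nicotine treated cells (3 to 2). With the median over probe sets RIGI takes the place of EIF2AK2 (-0.93) in that count, and the nicotine differences in ARRB1 siRNA cells turn from -0.38 to 0.60 for IFIH1 and from -0.30 to 0.10 for EIF2AK2. No 2-fold difference of a member changed sign in these alternatives. No pairing of replicates was possible, since there is 1 array per condition. Leaving out an array leaves no residual degree of freedom, so no such fit was made. For dim probe sets such as those of DHX58, the signal over background sets the limit of what these arrays can show.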
